A study of Drosophila melanogaster with 51 samples.

Results

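Sirup and mTerf3 are 2 nuclear genes of Drosophila melanogaster whose products work in mitochondria, and they are described here across the 12 genotype and age groups of a microarray study of COP9 signalosome mutants. The table of log ratios held 6187 features with a value, of which 4698 were named genes. Each of the 2 genes was found by its symbol, was read by 1 array entry and had a value on all 51 arrays. They were selected on earlier results from the log ratios of these same groups, in which both were among the changed genes. Their levels are therefore given as a description with no test, and nothing is supported with them.

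Each array carried total RNA of whole larvae in 2 dyes, 1 dye for a mutant and the other for age-matched wild type, for which most labels give the strain as w118. The csn4null groups lack CSN4, and 3, 4 and 4 arrays covered them at 60 h, 72 h and 96 h after egg deposition. The csn5null groups lack CSN5 and had 5, 4 and 4 arrays at these ages. The csn51 groups carry another mutant allele of CSN5 and had 4, 4 and 5 arrays, and the csn53 groups carry a further CSN5 allele and had 5, 4 and 5 arrays. CSN4 and CSN5 are subunits of the COP9 signalosome, which removes the small protein Nedd8 from cullins, and CSN5 is its catalytic subunit. Arrays of a group are labelled as biological repeats with dye reversals, but the labels do not say how many larvae or cultures a repeat holds, so errors below measure the spread between arrays. Each SE rests on 1 spread per gene, estimated over all groups together and drawn by the fit toward a spread common to all features. It can therefore be wider or narrower than the spread of a single group, which the SDs give. Whole larvae mix all tissues, so fewer cells of a type and less RNA per cell cannot be told apart. The mutant was labelled with Cy3 on 23 arrays and with Cy5 on 28.

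Succinate dehydrogenase, complex II of the respiratory chain, oxidises succinate in the tricarboxylic acid cycle and passes the electrons to ubiquinone. Sirup, named for its induction by starvation in flies, is the fly form of the assembly factor Sdhaf4, which helps the flavin-bearing subunit SdhA to join the complex. mTerf3 belongs to the mitochondrial transcription termination factor family. In flies and mice it lowers transcription of mitochondrial DNA and is needed for assembly of the mitochondrial ribosome.

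All values are ratios of a mutant to wild type on a log scale taken as base 2, written below as log2 ratios, so that 1 is a doubling and -1 a fall to 0.5 times the wild-type level. No source used here names the base, and a natural log would make every fold larger. The direction is likely rather than known. With every deposited sign turned, CSN4 was lower in its own null at each age (-2.39 ± 0.17 at 60 h, -2.47 ± 0.15 at 72 h and -2.19 ± 0.15 at 96 h, fit ± SE) and CSN5 was lower in its own null (-4.45 ± 0.30, -2.94 ± 0.33 and -2.03 ± 0.33). In csn51 and csn53 neither gene was called, with CSN5 between -0.53 and 0.25, so the direction there is assumed to be that of the nulls and has no target gene behind it. Were it opposite, every sign, order and rank given for csn51 and csn53 would turn. Correlations over the 12 groups or the 51 arrays would change as well, and they were not recomputed that way. The lowest correlation over all features between 2 arrays of one age was -0.33, between csn5null and csn51 arrays of opposite dye at 60 h. At 72 h the lowest was -0.26, between csn4null and csn51 arrays, and at 96 h it was -0.04, between csn5null and csn51 arrays.

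Among the csn5null hybridisations 3 stood apart from their groups, and results are given with and without them. The 60 h replicate 5 array had a median correlation of -0.01 with the other arrays of its group, and its highest correlation, 0.62, was with a csn53 array of that age, although CSN5 was at -4.78 on it. The 72 h replicate 3 array had a median correlation of -0.01 with its group and CSN5 at -0.32. The 96 h replicate 3 array had 0.07 and CSN5 at -0.01. On the other csn5null arrays CSN5 lay between -4.74 and -1.16. At 60 h all 5 csn5null arrays and 10 arrays in all carry wild-type number 1 in their labels, and whether these shared wild-type RNA is not stated, so the errors of the 60 h levels may leave out a shared part. Array medians of all entries lay between -0.02 and 0.03, and SDs of an array between 0.34 and 0.95.

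Sirup was higher in the mutant on 41 of 51 arrays, with log2 ratios between -1.97 and 4.94 and a median of 1.84. With csn51 and csn53 turned it would be higher on 14 of 51. It was above 0 on every array of 7 groups, which were the csn51 and csn53 groups at all 3 ages and csn5null at 72 h. The other 5 groups held arrays of both signs. High and low levels followed the genotype and, in csn5null larvae, the age.

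In csn51 larvae at 60 h the Sirup log2 ratios were 4.94, 3.59, 1.90 and 2.03. At 72 h they were 3.21, 3.36, 3.34 and 2.45, and at 96 h they were 2.18, 1.84, 1.77, 1.94 and 1.86. All 13 arrays were high, with a spread that was widest at 60 h and narrowest at 96 h. The fitted levels were 3.12 ± 0.55, 3.27 ± 0.56 and 1.99 ± 0.49 (SE), or 8.68, 9.67 and 3.98 times wild type, and the SDs over arrays were 1.44, 0.43 and 0.16. A fitted level is that of an even mix of both dye orientations, so it can differ from the plain mean where the dyes are uneven.

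In csn53 larvae at 60 h the Sirup log2 ratios were 3.59, 4.01, 3.78, 2.96 and 1.04. At 72 h they were 3.44, 3.36, 1.65 and 1.27, and at 96 h they were 1.29, 1.44, 1.41, 1.72 and 1.07. The csn53 arrays at 96 h all lay below the csn51 arrays of that age, without overlap, while the 2 alleles overlapped at 60 h and 72 h. The fitted levels were 3.15 ± 0.49, 2.43 ± 0.55 and 1.46 ± 0.49, or 8.87, 5.39 and 2.75 times wild type, with SDs of 1.20, 1.13 and 0.24. The difference csn51 minus csn53 was -0.03 ± 0.74 at 60 h, 0.84 ± 0.78 at 72 h and 0.53 ± 0.70 at 96 h, each close to its SE or smaller. These SEs come from the spread over all groups, and at 96 h the SDs of the 2 groups themselves were only 0.16 and 0.24. The 96 h difference turned to -0.05 when arrays were scaled to a common spread.

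The csn5null larvae had low Sirup at 60 h and high Sirup later. At 60 h the log2 ratios were -1.93, -1.12, -1.97, -1.31 and, on replicate 5, 3.20. At 72 h they were 2.98, 3.10, 0.62 on replicate 3, and 2.82. At 96 h they were 3.49, 3.36, -0.40 on replicate 3, and 2.69. In each age 1 array departed from the rest, and it was the array that stood apart over all features. Fitted levels were -0.55 ± 0.49, 2.38 ± 0.55 and 2.29 ± 0.55 with all arrays, with SDs of 2.17, 1.18 and 1.83. Without the 3 arrays they were -1.58 ± 0.36, 2.85 ± 0.41 and 3.07 ± 0.41. Leaving out replicate 5 alone moved the 60 h level to -1.58, while leaving out replicate 1 moved it to -0.09. The 96 h level minus the 60 h level was 2.84 ± 0.74 with all arrays and 4.65 without the 3.

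In csn4null larvae Sirup lay on both sides of 0. Its log2 ratios at 60 h were 2.15, 0.94 and -0.98. Those at 72 h were -0.05, 0.55, -0.996 and -0.58, followed by 0.16, 0.51, -0.45 and 0.36 at 96 h. Arrays disagreed in sign at every age. Those of 60 h spanned over 3 log2 units, whereas those of 72 h and 96 h lay between -0.996 and 0.55. The fitted levels were 0.59 ± 0.64, -0.27 ± 0.55 and 0.14 ± 0.55, with SDs of 1.58, 0.67 and 0.42. Leaving out replicate 1 took the 60 h level to -0.02, and leaving out replicate 3 took it to 1.55.

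**Figure D1:**
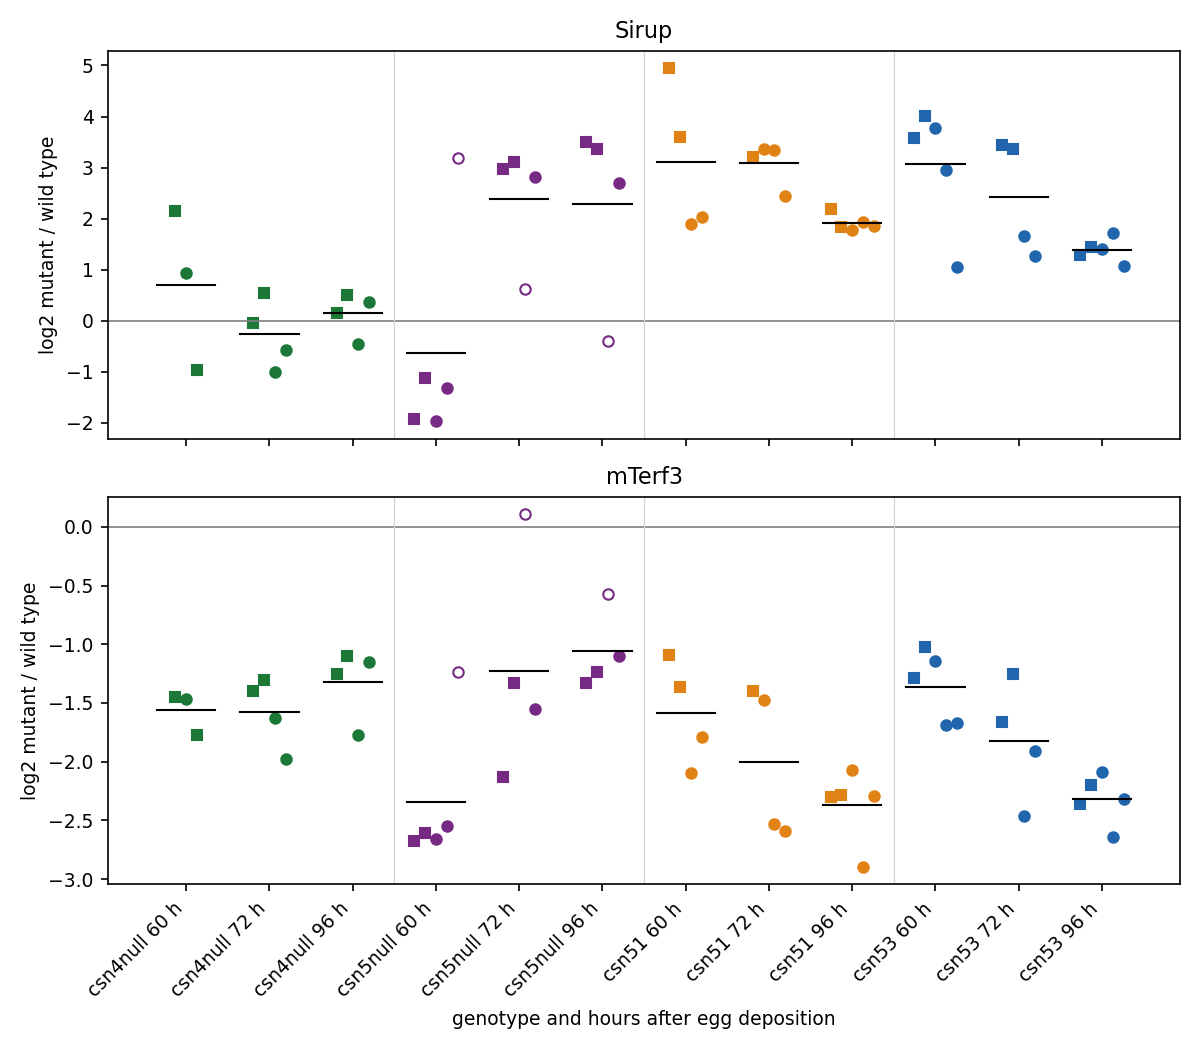
Log2 ratios of mutant to wild type for Sirup and mTerf3 on each of the 51 arrays, by genotype and hours after egg deposition; squares are arrays with the mutant in Cy3, circles with the mutant in Cy5, open marks are the 3 csn5null arrays that stand apart, and black lines are group means. Sirup runs from -1.97 to 4.94 with wide spread, and mTerf3 lies below 0 on 50 of 51 arrays.

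The null larvae of the 2 subunits differed in Sirup. The difference csn4null minus csn5null was 1.14 ± 0.81 at 60 h, -2.65 ± 0.78 at 72 h and -2.15 ± 0.78 at 96 h. Without the 3 arrays it was 2.18, -3.12 and -2.93. At 72 h the 2 groups did not overlap, csn4null reaching 0.55 and csn5null starting at 0.62, and at 96 h they overlapped only through replicate 3 of csn5null.

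The CSN5 mutants differed from each other in Sirup at the youngest age. At 60 h csn5null minus the mean of csn51 and csn53 was -3.69 ± 0.62, against -4.71 without the 3 arrays. At 72 h it was -0.47 ± 0.68, or 0.00 without them, and at 96 h it was 0.56 ± 0.65, or 1.34 without them. The csn5null arrays of 60 h other than replicate 5 lay below every array of the other 3 genotypes at that age, and replicate 5 itself lay among the csn51 and csn53 arrays. From 60 h to 96 h the csn51 level changed by -1.12 ± 0.74 and the csn53 level by -1.69 ± 0.70, opposite in sign to csn5null, and the csn4null level by -0.44 ± 0.84.

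Ordered by fitted level, Sirup was highest in csn51 at 72 h, then in csn53 and csn51 at 60 h, csn53 at 72 h, csn5null at 72 h and 96 h, csn51 and csn53 at 96 h, csn4null at 60 h, 96 h and 72 h, and csn5null at 60 h. This order holds for the assumed direction, and with csn51 and csn53 turned csn5null at 72 h and 96 h would lead it and csn51 at 72 h would end it. Of the neighbours in the order as given, the gap between csn51 and csn53 at 96 h (0.53) was larger than the mean SD of the pair (0.20), and the other gaps were smaller than theirs. Among all features of a group, Sirup ranked 5th from the highest of 6183 in csn51 and 5th of 6187 in csn5null at 72 h, and 7th of 6187 in csn5null at 96 h. In csn5null at 60 h it ranked 145th from the lowest.

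The spread of Sirup within groups was large, and its levels differed between the dyes in several groups. Its residual SD was 1.15 log2 units, against a median of 0.26 over features, and 0.711% of features had a larger one. The dye coefficient, mutant in Cy5 minus mutant in Cy3, was -0.73 ± 0.32, and 0.453% of features had a larger one in size. Sirup was lower with the mutant in Cy5 in 9 of 12 groups. In csn51 at 60 h the mean was 1.97 over 2 Cy5 arrays and 4.27 over 2 Cy3 arrays, and in csn53 at 72 h it was 1.46 over 2 Cy5 arrays and 3.40 over 2 Cy3 arrays. At 96 h the same difference was -0.16 in csn51 and 0.04 in csn53. All 3 csn5null arrays that stand apart had the mutant in Cy5. The part of the dye in the spread was not tested, and in both dyes Sirup was above 0 in every csn51 and csn53 group.

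mTerf3 was lower in the mutant on 50 of 51 arrays, with log2 ratios between -2.90 and 0.11 and a median of -1.67. With csn51 and csn53 turned it would be lower on 23 of 51. It lay below 0 on every array of 11 groups, and the exception was 1 csn5null array at 72 h. Unlike Sirup, it was low in csn4null as well, at all 3 ages.

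The mTerf3 log2 ratios in csn4null larvae of 60 h were -1.45, -1.47 and -1.78. Larvae of 72 h had -1.40, -1.30, -1.63 and -1.98, while those of 96 h had -1.25, -1.10, -1.78 and -1.15. The 3 ages overlapped. The fitted levels were -1.58 ± 0.27, -1.58 ± 0.23 and -1.32 ± 0.23, so that wild type exceeded the mutant 2.99, 2.98 and 2.50 times, and the SDs were 0.18, 0.30 and 0.31.

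In csn5null larvae mTerf3 was lowest at 60 h, where the log2 ratios were -2.68, -2.61, -2.66, -2.55 and, on replicate 5, -1.24. At 72 h they were -2.13, -1.33, 0.11 on replicate 3, and -1.55. At 96 h they were -1.33, -1.24, -0.57 on replicate 3, and -1.10. As for Sirup, the array that departed most from its group at each age was the one that stood apart over all features. The fitted levels were -2.34 ± 0.21, -1.23 ± 0.23 and -1.06 ± 0.23 with all arrays, with SDs of 0.62, 0.95 and 0.34. Without the 3 arrays they were -2.62 ± 0.16, -1.72 ± 0.18 and -1.27 ± 0.18. The 96 h level minus the 60 h level was 1.28 ± 0.31 with all arrays and 1.36 without the 3.

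For csn51 larvae of 60 h the mTerf3 log2 ratios were -1.09, -1.36, -2.09 and -1.79. At 72 h they were -1.40, -1.48, -2.53 and -2.59, and at 96 h they were -2.30, -2.29, -2.07, -2.90 and -2.29. Every csn51 array was below -1, and the 96 h arrays lay at or below -2.07. For csn53 larvae of 60 h they were -1.29, -1.02, -1.14, -1.69 and -1.67. At 72 h they were -1.66, -1.26, -2.47 and -1.91, and at 96 h they were -2.36, -2.20, -2.09, -2.65 and -2.32. The 2 alleles overlapped at every age, and in csn53 the 96 h arrays all lay below the 60 h arrays. The fitted levels of csn51 were -1.58 ± 0.23, -1.97 ± 0.23 and -2.36 ± 0.21, so that wild type exceeded the mutant 3.00, 3.92 and 5.13 times. Those of csn53 were -1.35 ± 0.21, -1.82 ± 0.23 and -2.31 ± 0.21, or 2.55, 3.54 and 4.96 times.

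**Figure D2:**
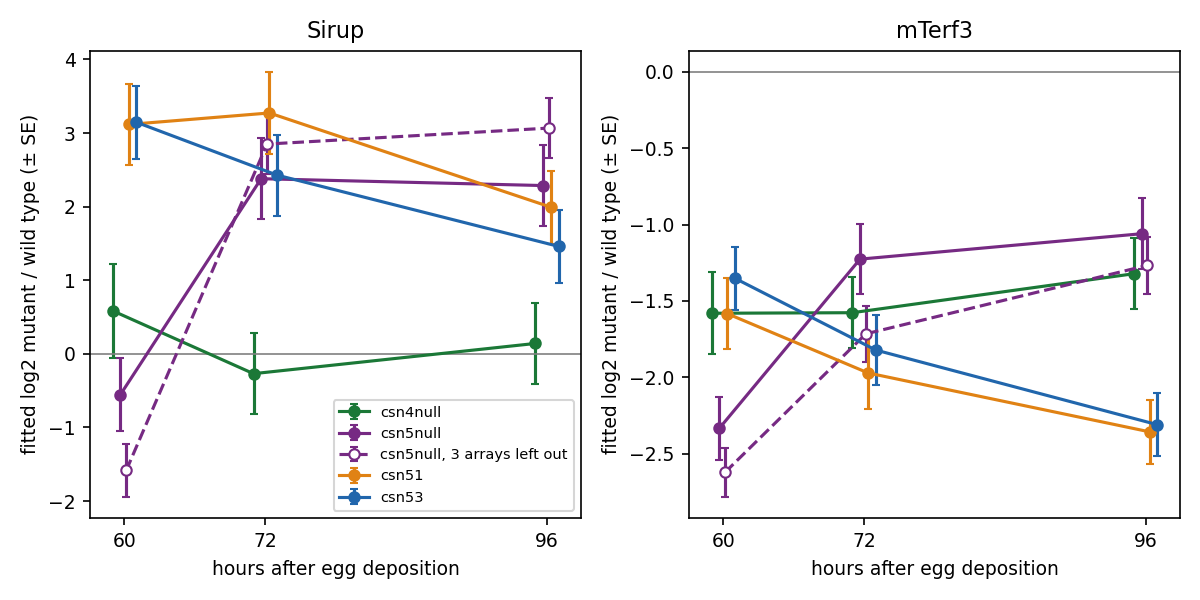
Fitted log2 ratios of mutant to wild type with their SE against hours after egg deposition for Sirup and mTerf3; the dashed line with open marks is csn5null without the 3 arrays that stand apart. Between 60 h and 96 h csn5null moved by 2.84 for Sirup and by 1.28 for mTerf3, while csn51 and csn53 moved by -1.12 and -1.69 for Sirup and by -0.77 and -0.96 for mTerf3.

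The age course of mTerf3 ran one way in csn5null and the other way in csn51 and csn53. From 60 h to 96 h the csn51 level changed by -0.77 ± 0.31 and the csn53 level by -0.96 ± 0.29, against 1.28 ± 0.31 in csn5null and 0.26 ± 0.35 in csn4null. The difference csn5null minus the mean of csn51 and csn53 was -0.87 ± 0.26 at 60 h, 0.67 ± 0.28 at 72 h and 1.27 ± 0.27 at 96 h. Without the 3 arrays it was -1.16, 0.16 and 1.05. With arrays scaled to a common spread the 60 h difference was -2.37 and the 96 h difference 0.88, and the change to 96 h was 2.49 in csn5null and -0.36 in csn51. At 96 h no csn5null or csn4null array reached down to any csn51 or csn53 array.

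Between the 2 nulls, mTerf3 differed at 60 h. The difference csn4null minus csn5null was 0.75 ± 0.34 at 60 h, -0.35 ± 0.33 at 72 h and -0.26 ± 0.33 at 96 h, or 1.01, 0.14 and -0.05 without the 3 arrays, and the 60 h value was 1.90 with scaled arrays. The difference csn51 minus csn53 was -0.23 ± 0.31, -0.15 ± 0.33 and -0.05 ± 0.29 at the 3 ages, and each was smaller than its SE, but the 96 h difference was 0.64 with scaled arrays.

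Ordered from the highest fitted level, mTerf3 ran through csn5null at 96 h and 72 h, csn4null at 96 h, csn53 at 60 h, csn4null at 72 h and 60 h, csn51 at 60 h, csn53 and csn51 at 72 h, csn53 at 96 h and csn5null at 60 h to csn51 at 96 h. No gap between neighbours in this order was larger than the mean SD of the pair. The order holds for the assumed direction, and with csn51 and csn53 turned csn51 at 96 h would lead it and csn5null at 60 h would end it. From the lowest, mTerf3 ranked 5th of 6187 features in csn5null at 60 h and 21st of 5867 in csn4null at 60 h, and its least extreme rank was 75th of 6186, in csn4null at 96 h. Its dye coefficient was -0.11 ± 0.13, and 38.8% of features had a larger one in size. Its residual SD was 0.48.

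With the direction assumed for csn51 and csn53, the levels of the 2 genes were only loosely related across the study. Over the 12 fitted levels Pearson's r between Sirup and mTerf3 was 0.19 and Spearman's rho 0.10, and over the 51 arrays Pearson's r was 0.27. The points share arrays, and those of one age may share wild-type RNA, so these values are a description. They were not recomputed with csn51 and csn53 turned, where these groups would have low Sirup and high mTerf3. The csn5null arrays of 60 h other than replicate 5 were low in both genes. The csn51 and csn53 arrays combined high Sirup with low mTerf3 at all 3 ages. So did the csn5null arrays of 72 h and 96 h other than replicate 3.

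**Figure D3:**
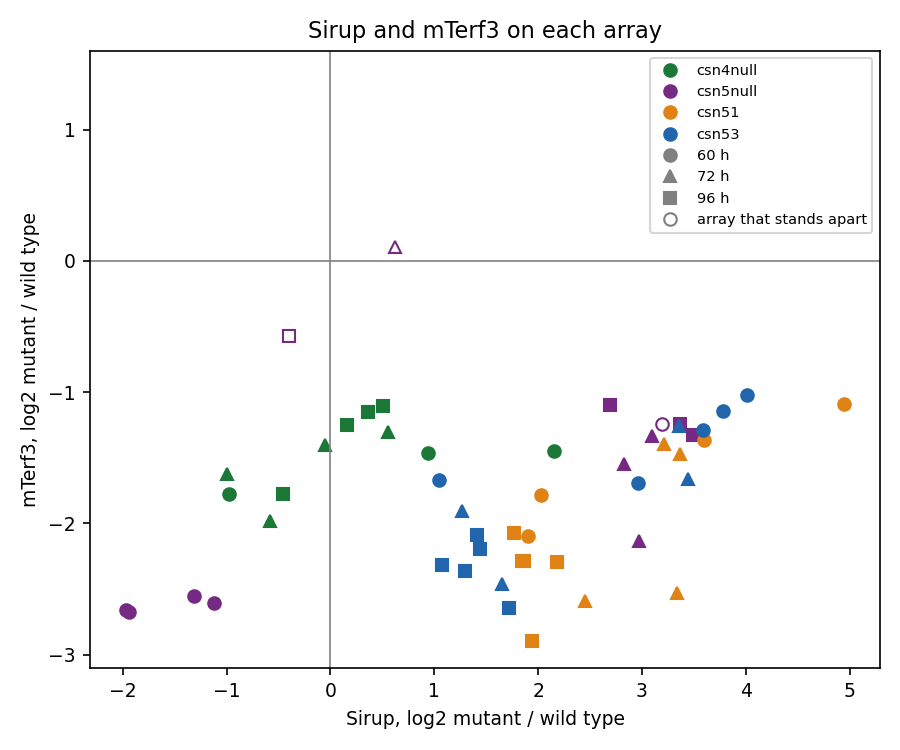
mTerf3 against Sirup on each array, both as log2 ratios of mutant to wild type, coloured by genotype with a mark for each age; open marks are the 3 csn5null arrays that stand apart. The csn4null arrays spread around 0 for Sirup while staying below -1 for mTerf3, and 4 csn5null arrays of 60 h lie at the lower left.

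Genes whose products work beside the 2 were read from lists, with Sirup and mTerf3 left out of every count. A gene was called where limma's adjusted p, by Benjamini-Hochberg over all features of a group, was under 0.05. As background, the share of all features called higher at 60 h, 72 h and 96 h was 9.77%, 12.6% and 15.1% in csn4null, where 8.08%, 12.4% and 16.3% were called lower. The csn5null shares at these ages were 4.54%, 8.32% and 9.47% higher, with 3.39%, 9.44% and 7.79% lower. For csn51 they were 24.1%, 17.6% and 27.0% higher, with 22.9%, 16.9% and 28.1% lower. For csn53 they were 25.3%, 15.8% and 21.0% higher, with 24.9%, 14.2% and 19.5% lower.

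Beside Sirup, 2 genes of complex II were measured, SdhB, the iron-sulfur subunit, and SdhAL, a gene similar to the flavoprotein subunit SdhA. They gave 6 lower calls over the 23 values tested, and limma called 0 higher, with 1 higher at an unadjusted p under 0.05. SdhB was lower in csn53 at 72 h (-0.31 ± 0.08, adjusted p = 0.00277), in csn51 at that age (-0.22 ± 0.08, adjusted p = 0.031) and at 96 h (-0.21 ± 0.07, adjusted p = 0.013), and in csn4null at these ages (-0.25 ± 0.08 and -0.27 ± 0.08, adjusted p = 0.02 and 0.00838). SdhAL was lower in csn51 at 72 h (-0.42 ± 0.13, adjusted p = 0.00829). These differences were small beside the Sirup log2 ratios of 3.27 and 2.43 in csn51 and csn53 at 72 h.

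Of 7 genes measured in the list of the tricarboxylic acid cycle, Idh, an NADP-dependent isocitrate dehydrogenase, was higher in all 12 groups, between 0.47 and 1.48, or in 6 and lower in 6 with csn51 and csn53 turned. ScsbetaG, a subunit of the GTP-forming succinyl-CoA synthetase, which makes the succinate that complex II oxidises, was lower in 7 groups, including every csn51 and csn53 group, and reached -1.18 ± 0.09 in csn51 at 96 h (adjusted p = 1.66e-14). In that group Sirup was at 1.99. The list as a whole gave 17.9% higher and 21.4% lower calls over its 84 values, against 15.9% and 15.3% of all features over all groups. Of its 15 higher calls Idh gave 12 and ScsbetaA 3, so the higher share is mostly that of 1 gene.

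The 15 measured genes of complexes I, III, IV and V gave 5% higher and 34.4% lower calls over 180 values. At 72 h 12 were lower in csn51, with a median of -0.32 over the list, 11 in csn53 with -0.26, and 5 in csn4null with -0.20, whereas in csn5null 3 were higher with a median of 0.18. At 96 h 11 were lower in csn4null, 8 in csn51 and 6 in csn53. ATPsynF, a subunit of the ATP synthase, was at -0.78 ± 0.07 in csn51 at 96 h (adjusted p = 1.5e-12) and -0.66 ± 0.08 in csn4null (adjusted p = 7.79e-09). ND-15, a complex I subunit, was at -0.70 ± 0.08 in csn51 at 72 h (adjusted p = 1.2e-09). In csn5null at 96 h 3 of the 15 were lower with all arrays and 9 without the 3 arrays that stand apart, with 1 rather than 3 higher at 72 h. Of all features in csn5null, 482 of 6187 were lower at 96 h with all arrays and 796 of 6187 without the 3. At 72 h 515 of 6187 were higher with all arrays and 542 of 6185 without the 3. With only the arrays of a group fitted, the 72 h counts were 10 lower in csn51, 1 in csn53 and 2 in csn4null, with 0 higher in csn5null. Over all features that fit called 889 of 6183 lower in csn51, 443 of 6187 in csn53 and 820 of 6187 in csn4null. It called 1 of 6187 higher in csn5null, so the 0 there is no result about the list.

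Since Sirup is induced by fasting in flies, 7 genes of fasting and nutrient signalling were read with it, among them genes that fed animals use. They gave 31% higher and 7.14% lower calls over 84 values. Of the higher calls, chico gave 7, Lst8, a subunit of the TOR complexes, gave 5 and sug gave 2. These are known for insulin, TOR and sugar signalling, so the share is not one of fasting-induced genes alone. The other higher calls came from Sesn with 5, bmm with 4 and foxo with 3, and foxo was lower in 1 group. In csn51 4, 3 and 4 of the 7 were higher at the 3 ages, and in csn53 4, 3 and 4, while csn4null had 1, 0 and 3, with 2 at 72 h at an unadjusted p under 0.05. In csn5null limma called 0 higher at any age, with 0, 0 and 1 higher at an unadjusted p under 0.05, and 1 was lower at 72 h and at 96 h. Without the 3 arrays 0, 0 and 1 were higher and 2, 0 and 1 lower. Beside these, 544, 542 and 892 of all 6186, 6185 and 6187 features were then higher, and 520, 745 and 796 lower. The transcription factor gene sug, which dietary sugar induces, was at 1.57 ± 0.34 in csn53 at 60 h (adjusted p = 0.000192), and bmm, a triglyceride lipase, was at 0.86 ± 0.22 in csn51 at 96 h (adjusted p = 0.00105). AkhR, the receptor of adipokinetic hormone, which mobilises stores during fasting, was lower in 5 groups, at -1.61 ± 0.20 in csn51 and -1.60 ± 0.20 in csn53 at 96 h (adjusted p = 6.98e-09 and 1.81e-08) and at -1.55 ± 0.22 in csn4null (adjusted p = 6.15e-07). The gene chico encodes the insulin receptor substrate, which carries the insulin signal of fed animals.

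Beside mTerf3, 6 genes of mitochondrial transcription and DNA maintenance were measured. At 60 h 4 were lower in csn51 and 4 in csn53, with list medians of -0.27 and -0.30, and at 96 h 4 were higher in each, with medians of 0.30 and 0.29. mTerf3 itself was low at both ages in these alleles, and lower at 96 h. PolrMT, the mitochondrial RNA polymerase, reached 2.24 ± 0.19 in csn51 at 96 h (adjusted p = 3.06e-13) and 1.18 ± 0.19 in csn53 (adjusted p = 2.09e-06), and it was also higher at 96 h in csn4null (1.04 ± 0.21, adjusted p = 0.000147) and csn5null (0.58 ± 0.21, adjusted p = 0.0479). TFAM, which packs mitochondrial DNA and starts its transcription, was at -0.39 ± 0.09 at 60 h and 0.33 ± 0.08 at 96 h in csn51 (adjusted p = 0.000217 and 0.000322). The leucine-rich protein bsf, which binds mitochondrial transcripts, was at 0.92 ± 0.16 in csn51 and 1.05 ± 0.16 in csn53 at 96 h (adjusted p = 2.9e-06 and 4.88e-07). mTerf5, a relative of mTerf3, was lower in csn51 and csn53 at 60 h and 72 h, between -0.33 and -0.28.

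Mitochondrial ribosomal proteins, whose assembly needs mTerf3, were lower in the young larvae and higher in the old ones of csn51 and csn53. At 60 h 18 of 19 were lower in csn51 and 19 of 19 in csn53, with medians of -0.62 and -0.50. At 72 h 13 and 4 were lower, with medians of -0.38 and -0.15. At 96 h 16 and 15 were higher, with medians of 0.42 and 0.38. Examples in csn51 were mRpS30 at -0.93 ± 0.10 at 60 h (adjusted p = 2.91e-09) and mRpS31 at 0.74 ± 0.08 at 96 h (adjusted p = 7.08e-10). In csn4null 9 were lower at 60 h and 15 at 72 h, with medians of -0.29 and -0.40, and 5 were higher at 96 h, with a median of 0.06. In csn5null 1, 7 and 0 were lower at the 3 ages and 1, 0 and 1 higher, against 1, 13 and 7 lower and 4, 0 and 1 higher without the 3 arrays. Over all features, csn5null calls at these ages also rose without the 3 arrays. Lower calls went from 210, 584 and 482 to 520, 745 and 796, and higher calls from 281, 515 and 586 to 544, 542 and 892. The csn5null counts thus depend on these arrays, in the list and over all features. With only the arrays of a group fitted, 0 were lower in csn4null at 60 h, in csn53 at 72 h and in csn5null at 72 h, while the csn51 and csn53 counts at 60 h were 19 each and at 96 h 15 and 16 higher. Over all features that fit called 19 of 5867 lower in csn4null at 60 h and 0 of 6187 in csn5null at 72 h. The 0 counts of these groups are therefore no result about the list. In csn53 at 72 h it called 443 of 6187 lower. It called 1441 of 6186 lower in csn51 and 1798 of 6187 in csn53 at 60 h, and 1158 of 5931 and 1527 of 6186 higher at 96 h. By limma at an unadjusted p under 0.05, 1 was lower in csn5null at 96 h and 1 higher at 72 h with all arrays.

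Translation factors and aminoacyl-tRNA synthetases of mitochondria gave 8.98% higher and 29.3% lower calls over 14 genes. At 60 h 11 of 14 were lower in csn51 and 12 in csn53, with medians of -0.66 and -0.58, and 5 in csn4null, with a median of -0.35, or 0 in csn4null with only its own arrays fitted. That fit called 19 of all 5867 features lower in csn4null at 60 h, so this 0 is no result about the list. At 96 h 6 of the 13 tested were higher in csn51 and 5 of 14 in csn53. GlyRS, the glycyl-tRNA synthetase, was at -0.79 ± 0.08 in csn51 at 60 h (adjusted p = 1.05e-09), and LeuRS-m, the leucyl-tRNA synthetase of mitochondria, was at 0.74 ± 0.09 in csn51 at 96 h (adjusted p = 2.9e-09).

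Chaperones, import factors and proteases of mitochondria were likewise mostly lower at 60 h and higher at 96 h in the 2 alleles. At 60 h 11 of 15 were lower in csn51 and 11 in csn53, with medians of -0.51 and -0.44, and at 96 h 11 were higher in each, with medians of 0.55 and 0.42. In csn4null 8 were lower at 72 h and 6 higher at 96 h. Trap1, a mitochondrial chaperone of the Hsp90 family that binds complex II in other species, was at 1.00 ± 0.10 in csn51 at 96 h (adjusted p = 1.25e-11) and -0.71 ± 0.11 in csn4null at 72 h (adjusted p = 1.93e-06). Medians over all features lay within 0.02 of 0 in every group.

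**Figure D4:**
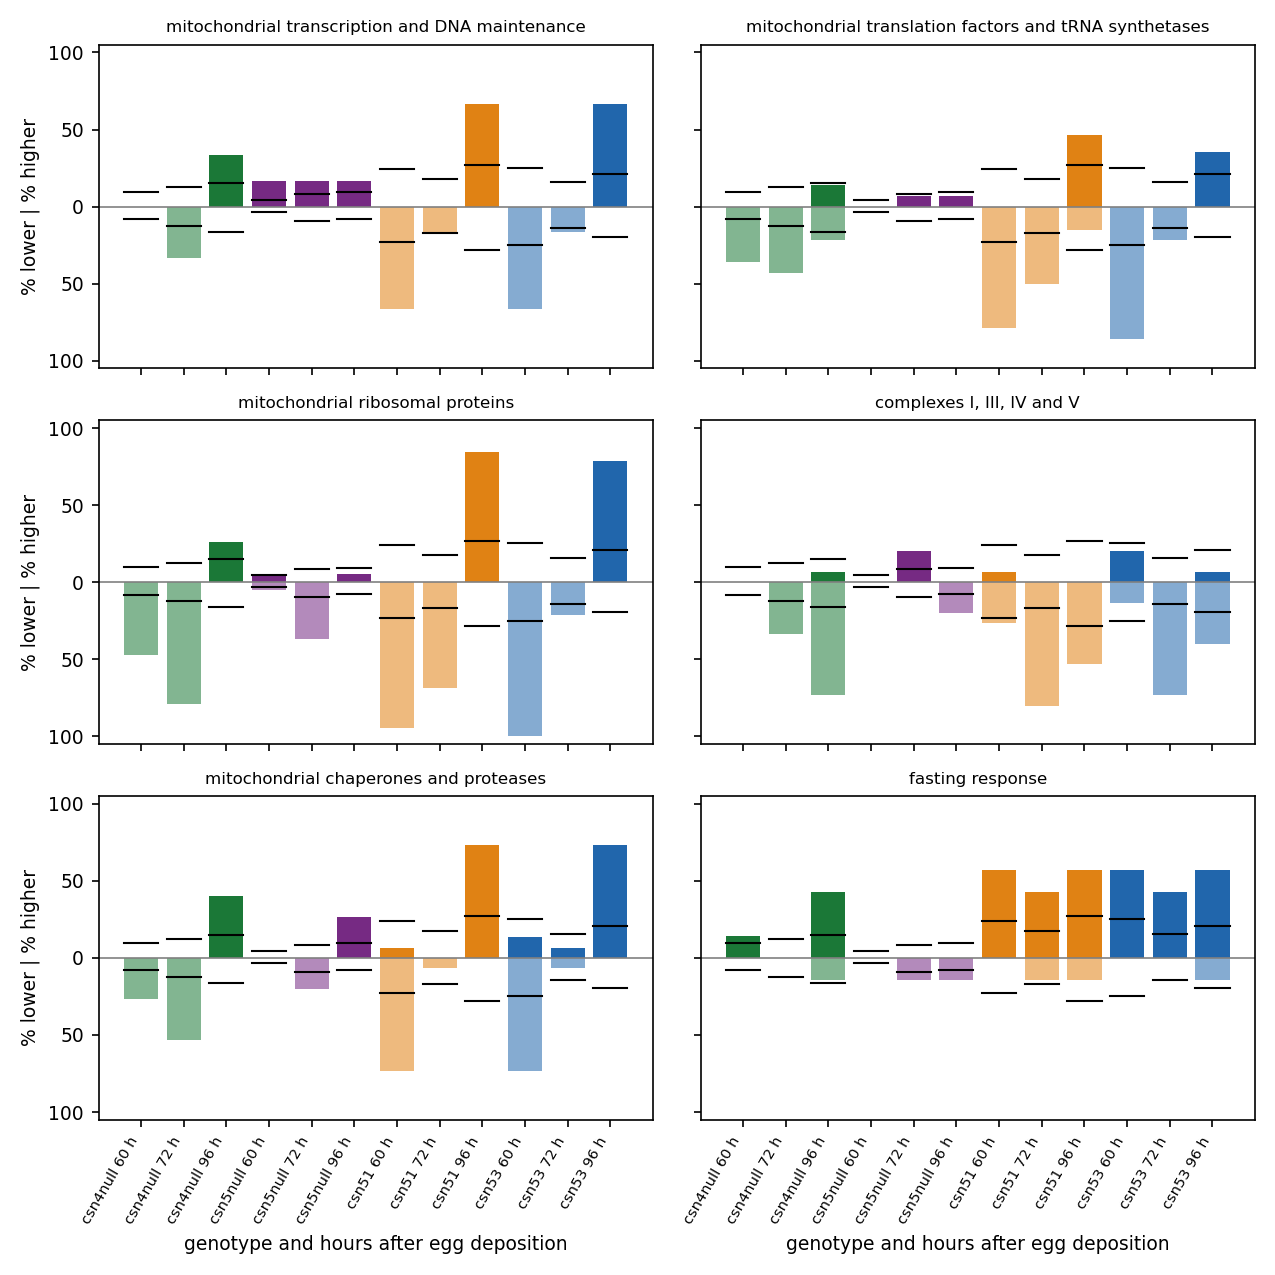
Share of each list's tested genes called higher (dark bars, upward) and lower (pale bars, downward), in percent, in the 12 groups, for 6 lists with Sirup and mTerf3 left out; black lines mark the share of all features called in that direction. In csn51 and csn53 the mitochondrial ribosomal proteins and the chaperones have mostly lower calls at 60 h (18 and 19 of 19 ribosomal proteins) and mostly higher calls at 96 h (16 and 15 of 19).

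The nearest 2 measured genes on each side of the 2, and any overlapping one, were taken from the RefSeq gene table (Release 6 plus ISO1 MT). That table is used here for names and neighbours only. Unmeasured genes can lie between, so these are not always adjacent genes. Gaps to Sirup ran from 717 bases for CG7227 to 111355 for CG7102, and gaps to mTerf3 from 1667 for Pss to 76368 for knrl. Wwox, an oxidoreductase gene which overlaps Sirup by 7 bases in that table, was higher in 3 groups. It stood at 0.57 ± 0.15 in csn51 and 0.43 ± 0.15 in csn53 at 72 h (adjusted p = 0.00239 and 0.023), where Sirup was at 3.27 and 2.43. It stood at 0.58 ± 0.13 in csn51 at 96 h (adjusted p = 0.00032), where Sirup was at 1.99. Its fitted levels had r = 0.75 with those of Sirup over the 12 groups. It was not called in csn51 or csn53 at 60 h (0.20 ± 0.15 and 0.22 ± 0.13), where Sirup was at 3.12 and 3.15. No source used here gives the strand or place of the array entries. The neighbour poe was higher in 6 groups, up to 0.65, with r = -0.13 to Sirup over the groups. CG7102 was higher in 1 group and lower in 3 (r = -0.26), and Cka was lower in 2 (r = 0.33). CG7227, the nearest on the other side, lay between -0.22 and 0.18 (r = -0.10).

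Among the 4 neighbours of mTerf3, Pss alone had lower calls. Pss, phosphatidylserine synthase, was lower in 3 groups, at -0.60 ± 0.14 and -0.66 ± 0.12 in csn51 and csn53 at 60 h (adjusted p = 0.000359 and 2.28e-05) and -0.39 ± 0.14 in csn51 at 72 h (adjusted p = 0.0241), and its other levels reached 0.21. The nuclear receptor gene knrl was higher in the 4 groups of 96 h, between 0.22 and 0.33. CG18281 was higher in csn53 at 72 h (1.63 ± 0.40, adjusted p = 0.00158), and CG32425 lay between -0.19 and 0.22.

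By the correlation of the 12 fitted levels, over 4376 genes, the pattern of Sirup was most like those of Wbp2 (r = 0.93), Rim2, a mitochondrial carrier of pyrimidine nucleotides (0.91), p130CAS (0.90), the receptor gene sax (0.90) and the tubulin folding cofactor gene Tbcc (0.88). These genes moved far less than Sirup, with highest levels between 0.49 and 0.89. The most opposite were CG8036 (r = -0.90), CG8915 (-0.89), Prp18 (-0.84), bbc (-0.83) and Ptpa (-0.82). Over the 51 arrays Rim2 and sax ranked 1st and 2nd of 4376 for Sirup, and Wbp2 17th.

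The pattern of mTerf3 was most like those of CG3558 (r = 0.93), Meltrin (0.85), the receptor gene Tollo (0.85), Jarid2 (0.84) and dnc, a phosphodiesterase gene (0.82). Over the 51 arrays Tollo and Jarid2 ranked 584th and 742nd and dnc 3rd, so the choice of points moved the order. The most opposite were CG1307 (r = -0.87), CG10340 (-0.84), CG32278 (-0.81), CG12107 (-0.81) and Aef1 (-0.79). mTerf3 ranked 1373rd among the genes most like Sirup. All these correlations and ranks hold for the direction assumed for csn51 and csn53.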

How the data were processed

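Total RNA of whole larvae was labelled by amino-allyl dye coupling and hybridised to 2-colour arrays, mutant against age-matched wild type, per the labels' protocols. The deposited log2 ratios (base taken as 2) were made by the authors, and background correction, normalization and filtering are not given in the sources used here. Array medians lay near 0, and no signal intensities or depths were used here, so the number of arrays limits the precision. All signs were turned as described above. Probe genes came from GEO's platform annotation: of 6621 entries 5072 had 1 symbol, 176 several and 1373 none, controls included, and 4993 were matched to RefSeq. Entries of a gene were averaged after 32 controls were dropped.

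limma 3.58.1 in R 4.3.3 fitted 12 group coefficients and 1 dye coefficient to all 51 arrays, with a moderated test of each coefficient and Benjamini-Hochberg adjustment at 0.05 over the features with at least 2 values in the group. The fit was checked on simulated data. Sirup, mTerf3, the 8 lists and the arrays left out were chosen with earlier results of these data known. Named genes were the members, CSN4 and CSN5, the nearest 2 measured genes on each side and any overlapping one, the 5 most like and 5 most opposite genes with values on at least 45 arrays, and up to 4 called genes of a list per group by adjusted p. Alternatives changed the dye term, arrays fitted, centring, scale, array weights, blocks, missing values and entry averaging, and left out arrays.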

Additional observations from a re-analysis of the deposited data

Results flagged for a closer look

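In groups of 4 or 5 arrays, the highest or lowest array was set against Dixon's critical value for its gap to the nearest other array over the whole range. Of 22 such groups of Sirup and mTerf3, 5 held an array past it, and chance alone passes about 5% of groups. This marks arrays for a closer look and is no test, since the 2 genes were chosen on these values and share arrays. Sirup stood at 3.20 on csn5null 60 h replicate 5, where the next array was at -1.12, and at 0.62 on csn5null 72 h replicate 3, where the next was at 2.82. mTerf3 stood at -1.24 on the same csn5null 60 h replicate 5 array, where the next was at -2.55. Both of these arrays also stand apart over all features, and their part in the values was not tested. Sirup was at 2.45 on csn51 72 h replicate 4, the next array being at 3.21. mTerf3 was at -2.90 on csn51 96 h replicate 4, against -2.30 on the next.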

How the results depend on the processing

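The 24 levels of Sirup and mTerf3 were recomputed 366 times, and 363 values stayed within 1 SD between arrays, leaving out each array in turn included. Arrays scaled to a common spread moved the other 3, Sirup in csn51 at 96 h to 1.43, mTerf3 in csn5null at 60 h to -3.64 and mTerf3 in csn51 at 96 h to -1.71. Of 512 recomputed differences 504 stayed, and 8 moved beyond the spread or turned. With scaled arrays both csn51 minus csn53 differences at 96 h turned, Sirup from 0.53 to -0.047 and mTerf3 from -0.05 to 0.64. The others were 5 mTerf3 differences with scaled arrays, given above, and the same Sirup difference at 0.74 with array weights. Of 992 recomputed list totals, summed over the 12 groups, 984 stayed within 1.5 times. The counts of single groups moved more: of 192, 46 left that range with only a group's own arrays fitted, 29 of them falling to 0, 49 with array weights, 28 with scaled arrays and 31 without the 3 csn5null arrays. Calls over all features moved as well. With only its own arrays fitted, csn5null at 72 h had 1 higher and 0 lower of 6187 features, and csn4null at 60 h had 59 and 19 of 5867. With only a group's own arrays fitted, higher calls fell to 8 for translation factors, against 15, and to 3 for complexes I, III, IV and V, against 9, while lower calls were 40 there, against 62, and 3 for complex II, against 6; fewer arrays then estimate the spread. Complex II gained 1 higher call with scaled arrays and 1 with array weights. Lower calls of the fasting list were 10 with array weights and 1 where a value on every array was required, against 6, and the cause was not tested for the weights. A random replicate block had a consensus correlation of 0.00449, and a block of wild-type labels had 0.0148; neither changed a count by over 1.5 times. Deviations of same-numbered arrays correlated between -0.56 and 0.61 over 71 array pairs, and 0 of 18 genotype pairs had every correlation over 0.1, so the numbers do not pair the arrays. No signal over background was read, so weak probes are not known.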

Other observations

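Some genes of the lists are given here, of which some departed from the rest of their list and others went with it. At 60 h, when 11 of 15 mitochondrial chaperones, import factors and proteases were lower in csn53, ClpX, the unfoldase of the matrix protease ClpXP, was higher (0.93 ± 0.15, adjusted p = 1.84e-06 by limma). At 96 h ClpX was also higher in csn4null (0.78 ± 0.17, adjusted p = 0.000293) and csn5null (0.65 ± 0.17, adjusted p = 0.0041). There it went with its list, of which 6 and 4 of 15 were higher. Lst8, a subunit of the nutrient-sensing TOR complexes, was higher in 5 groups and reached 0.97 ± 0.07 in csn51 at 96 h (adjusted p = 3.15e-14), where 4 of the 7 genes of its list were higher. Idh3b, a subunit of the NAD-dependent isocitrate dehydrogenase of mitochondria, was lower in 5 groups, down to -0.47 ± 0.09 in csn53 at 72 h (adjusted p = 6.21e-05), while Idh was higher in all 12. Both counts hold for the direction assumed for csn51 and csn53.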
